A study of Homo sapiens with 6 samples.

Results

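The alpha-arrestins are a family of arrestin-fold adaptor proteins, and the Mondo factors are transcription factors that sense glucose. This account covers 8 genes of the 16229 in the deposited tables: the alpha-arrestin genes ARRDC1, ARRDC2, ARRDC3, ARRDC4 and TXNIP, and the genes MLXIP (MondoA), MLXIPL (ChREBP) and MLX. Each of the 8 symbols had a row in the count table, and each passed the filter on low counts. The genes were selected on earlier results of the same comparison, GCA against CON, so their values in it are given as a description, with no p-value, and support nothing further. The data are 6 RNA-seq libraries of MC38, which the labels describe as colorectal cancer cells of wild-type genotype. The 3 GCA libraries came from cells kept for 24 hours with GCA, read here from the series' title as the bile acid glycocholic acid, and the 3 CON libraries from cells kept without it. No dose of GCA is given in the sources used here, and the fa in the titles of the GCA samples is unexplained there. MC38 is known as a mouse line, although the labels name human as organism and the tables hold human symbols, and the extraction text speaks of heart tissue. PolyA RNA and a kit that depletes ribosomal RNA are both named. Whether replicates were separate cultures is not stated, and the p-values therefore describe the spread among these libraries alone, which may be technical.

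MondoA and ChREBP each pair with MLX and, when glucose 6-phosphate is plentiful, bind carbohydrate response elements, which hold a pair of E-box-like elements set a few bases apart. TXNIP and ARRDC4 are among their best known targets. Alpha-arrestins recruit ubiquitin ligases of the NEDD4 family to membrane proteins through PPxY motifs. TXNIP and ARRDC4 lower glucose uptake, and TXNIP also binds and inhibits thioredoxin.

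Total counts ran from 19484569 to 20531612 in GCA and from 18057453 to 19110987 in CON, which puts a floor of 3 counts at 0.146 to 0.166 CPM, a count scaled to library size (TMM-scaled for the genes' levels). Such floors cover counting error only. The first principal component, with 65.7% of the variance, parted the groups. On the second, with 18.1%, CON 1 stood at 34.5 against -14.7 and -17.8 for the other CON libraries, and GCA 1 at 8.10 against -5.78 and -4.33. Markers of intestinal epithelium summed to 11130 to 12701 CPM in GCA and 7916 to 10109 CPM in CON, with 7 of 7 tested. This sum was mostly the keratin genes KRT8, KRT19 and KRT18 and does not by itself show an intestinal origin. Of markers of other cells, 5 leukocyte genes summed to 14.4 to 24.8 CPM in GCA and 19.2 to 25.8 CPM in CON, mostly CD68, and 7 fibroblast and endothelial genes to 16.9 to 18.6 CPM in GCA and 12.0 to 13.3 CPM in CON, mostly COL1A1. The 6 cardiomyocyte genes summed to at most 0.560 CPM in GCA and 0.278 CPM in CON, and 4 hepatocyte genes to at most 0.458 CPM in GCA and 0.417 CPM in CON. The part of these marker levels in any result was not tested.

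ARRDC1 and MLXIPL stood higher in GCA and ARRDC3 stood lower, with no overlap between the groups. ARRDC4 passed the threshold of the fit as lower, although its groups overlapped. ARRDC2 lay higher without overlap but did not pass. TXNIP, MLXIP and MLX kept overlapping levels. The calls of ARRDC4 and MLXIPL were lost under several other settings. In the fit over all 12604 tested genes (edgeR, quasi-likelihood test, Benjamini-Hochberg threshold of 0.05), 36.4% of genes were called, 18.3% higher and 18.1% lower in GCA. By the same threshold 2 of the 8 genes were higher and 2 were lower, a count that the choice of genes helped to set. The median log2 fold change of all tested genes was -0.04. Since the libraries are of bulk cells, fewer cells with a transcript and less of it per cell cannot be told apart.

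**Figure D1:**
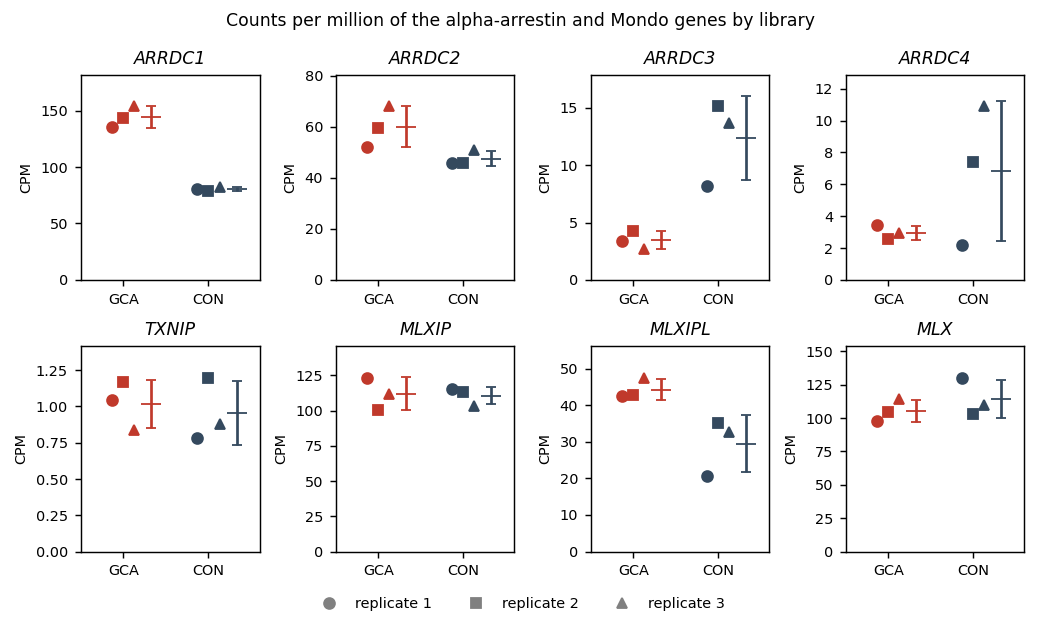
Level of each of the 8 genes in CPM (y axis, from 0) in the 3 GCA and the 3 CON libraries (x axis); symbols mark the replicate number, and the bar beside each group is its mean ± SD. ARRDC1, ARRDC2 and MLXIPL lie higher in every GCA library than in any CON library, ARRDC3 lies lower in every one, and the low CON 1 value of ARRDC4, 2.17 CPM, lies below every GCA value.

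ARRDC1 recruits NEDD4-family ligases and, with the ESCRT protein TSG101, drives the budding of microvesicles from the plasma membrane. It lies on chromosome 9 (137605686 to 137615360, plus strand, GRCh38). Its level was 135, 143 and 154 CPM in GCA 1 to 3 and 80.3, 79.2 and 82.8 CPM in CON 1 to 3. The groups did not overlap, and the CON libraries lay within 1.05 times of each other. The means were 144 ± 9.61 CPM in GCA and 80.8 ± 1.84 CPM in CON (SD, n = 3 each), a log2 fold change of 0.84 ± 0.11 (SE). Of the tested genes, 973 had a larger rise. An antisense gene, ARRDC1-AS1, overlaps it, and as the strand setting of the counting is not given in the sources, reads of the pair cannot be told apart.

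ARRDC2, a less studied member that also binds NEDD4-family ligases, lies on chromosome 19 (18001124 to 18014102, plus strand). It had 52.1, 59.7 and 68.2 CPM in GCA 1 to 3 and 45.7, 45.9 and 51.0 CPM in CON 1 to 3. The lowest GCA value, in GCA 1, was just above the highest CON value, in CON 3. The log2 fold change was 0.34 ± 0.13 (SE), which did not pass the threshold. It did pass with the replicate number as a block (0.33), without CON 1 (0.30) and without GCA 1 (0.44).

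ARRDC3 has been tied to the ubiquitination and trafficking of the beta2-adrenergic receptor and of integrin beta4. It lies on chromosome 5 (91368631 to 91383317, minus strand). ARRDC3 was counted 68, 84 and 52 times in GCA 1 to 3 and 147, 291 and 264 times in CON 1 to 3. These counts are 3.37, 4.28 and 2.72 CPM in GCA and 8.19, 15.2 and 13.7 CPM in CON. Every GCA library was below every CON library, and CON 1 was the lowest of the CON group. ARRDC3 averaged 3.46 ± 0.779 CPM in GCA and 12.3 ± 3.68 CPM in CON (SD, n = 3 each), which makes it 3.57-fold lower in GCA by the fit (log2 -1.83 ± 0.25, SE). Only 10 of the tested genes had a larger fall. ARRDC3 was called lower under each of the 13 other settings tried, all on the libraries it was chosen on. A non-coding gene on the opposite strand, ARRDC3-AS1, overlaps it.

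The upstream sequence of ARRDC3 is shown because FOXO factors, which bind GTAAACA, are known regulators of alpha-arrestin genes. RefSeq gives ARRDC3 a pair of start sites, and the stretch below is the 250 bases before the inner start site (GRCh38.p14, chr5:91380098-91380347, minus strand). The search covered the E-box CACGTG, the E-box-like element CACGAG of carbohydrate response elements, their shared form CACGNG, the CCAAT box and the FOXO heptamer GTAAACA, each on both strands. It also covered pairs of the shared form with 5 bases between them. In the printed stretches, capitals mark the E-box, pairs of E-box-like elements, the CCAAT box and the heptamer or its reverse complement.
ARRDC3: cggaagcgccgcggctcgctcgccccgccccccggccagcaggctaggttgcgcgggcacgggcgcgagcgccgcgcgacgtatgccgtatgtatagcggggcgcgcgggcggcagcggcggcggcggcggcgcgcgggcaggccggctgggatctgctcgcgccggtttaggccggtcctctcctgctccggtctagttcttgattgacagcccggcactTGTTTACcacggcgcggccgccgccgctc
The capitals mark GTAAACA on the other strand, 29 bases before the start. This heptamer occurred in 2.98% of the 35116 RefSeq promoter windows of the same length, and in 2 of the 11 windows of the genes described here. The outer start site of ARRDC3 had a CCAAT element 241 bases upstream and no other capitalised motif.

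ARRDC4, the closest relative of TXNIP in sequence and a glucose-induced gene in other cells, lies on chromosome 15 (97960703 to 97973833, plus strand). Its counts were 69, 50 and 56 in GCA 1 to 3 and 39, 142 and 211 in CON 1 to 3. As CPM, ARRDC4 stood at 3.42, 2.54 and 2.93 in GCA and at 2.17, 7.40 and 10.9 in CON. The groups overlapped: CON 1 was the lowest of all 6 libraries, while CON 2 and CON 3 were the highest, so that the highest CON value was 5.03 times the lowest. In GCA the same ratio was 1.35. Among libraries of the same number, GCA 1 was above CON 1, while GCA 2 and GCA 3 were below CON 2 and CON 3. The log2 fold change was -1.21 ± 0.41 (SE), past the threshold. It was -1.63 without CON 1, still called, and -0.68 without CON 3, no longer called. The call was also lost without CON 2 (-1.13), GCA 1 (-1.30), GCA 2 (-1.11) or GCA 3 (-1.20), with the replicate block (-1.03) and with library size alone as scaling (-1.28).

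TXNIP, the thioredoxin-interacting protein gene, lies on chromosome 1 (145992435 to 145996579, minus strand). It had 21, 23 and 16 counts in GCA 1 to 3 and 14, 23 and 17 counts in CON 1 to 3. The levels were 1.04, 1.17 and 0.838 CPM in GCA and 0.780, 1.20 and 0.880 CPM in CON. The groups overlapped throughout, and TXNIP was the lowest of the 8 genes per length in either group. Its log2 fold change was 0.09 ± 0.34 (SE), so at this depth neither a moderate rise nor a moderate fall was detectable. Over the 6 libraries together, 27.1% of the genes in the table had a lower mean FPKM (counts per library total and kilobase of gene length).

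The promoters of TXNIP and ARRDC4 are shown because these genes are the textbook targets of MondoA. Here ARRDC4 was called lower and TXNIP was not, and the difference between them was not itself tested. Each line holds the 250 bases before a start site, TXNIP at chr1:145996580-145996829 (minus strand) and ARRDC4 at chr15:97960453-97960702 (plus strand), from RefSeq on GRCh38.p14. RefSeq gives TXNIP a further, inner start site, not printed, whose window held none of the motifs searched.
TXNIP: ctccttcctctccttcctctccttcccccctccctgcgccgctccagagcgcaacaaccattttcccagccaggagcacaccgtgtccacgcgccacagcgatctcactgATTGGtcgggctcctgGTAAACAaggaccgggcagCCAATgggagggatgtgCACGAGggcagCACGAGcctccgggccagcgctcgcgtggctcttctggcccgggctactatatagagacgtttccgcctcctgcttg
ARRDC4: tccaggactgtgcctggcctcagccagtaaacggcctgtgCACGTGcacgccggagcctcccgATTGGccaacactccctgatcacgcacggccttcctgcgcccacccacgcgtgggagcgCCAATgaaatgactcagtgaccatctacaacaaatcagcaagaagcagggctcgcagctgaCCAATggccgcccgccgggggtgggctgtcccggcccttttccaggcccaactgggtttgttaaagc
In TXNIP the paired capitals CACGAG, 5 bases apart, begin 88 bases before the start, and a pair of CACGNG elements at that spacing occurred in 23 of 35116 promoters (0.0655%). CCAAT elements, read on either strand, begin 140 and 105 bases before the start of TXNIP, and GTAAACA lies between them at 124. ARRDC4 held no such pair in this window, but it had CACGTG 210 bases before the start and CCAAT at 187, 128 and 67. The E-box CACGTG occurred in 6.34% of promoters, the element CACGAG in 5.58%, the CCAAT box in 32.0% and at least 3 CCAAT boxes in 2.93%. Of the 11 promoters of the 8 genes, 7 held a CCAAT box and 5 the shared form CACGNG, which 26.7% of all promoters held. A match is a run of letters and was not tested as a binding site.

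MLXIP encodes MondoA, the glucose-sensing partner of MLX in many tissues. It lies on chromosome 12 (122078756 to 122147344, plus strand). MLXIP had 124, 100 and 112 CPM in GCA 1 to 3 and 115, 113 and 104 CPM in CON 1 to 3. The groups overlapped, and the log2 fold change was 0.02 ± 0.12 (SE).

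MLXIPL encodes ChREBP, the paralogue best known from liver and fat tissue, where it drives glycolytic and lipogenic genes. It lies on chromosome 7 (73593202 to 73647907, minus strand). MLXIPL had 42.4, 42.7 and 47.6 CPM in GCA 1 to 3 and 20.6, 35.2 and 32.6 CPM in CON 1 to 3. Every GCA library was above every CON library, and CON 1 was far below CON 2 and CON 3. The means were 44.2 ± 2.89 CPM in GCA and 29.5 ± 7.83 CPM in CON (SD, n = 3 each), with a log2 fold change of 0.59 ± 0.17 (SE), past the threshold. Without CON 1 it was 0.38, which still passed. The call was lost without GCA 2 (0.61) or GCA 3 (0.53) and with library size alone as scaling (0.52). Gene counts do not separate the alpha and beta isoforms of ChREBP.

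MLX encodes the obligate partner of both factors and lies on chromosome 17 (42567100 to 42573203, plus strand). Its level was 97.8, 104 and 114 CPM in GCA 1 to 3 and 130, 103 and 110 CPM in CON 1 to 3. The highest value was CON 1, and the other 5 libraries overlapped. The log2 fold change was -0.12 ± 0.13 (SE). MLX overlaps PSMC3IP, a protein-coding gene on the opposite strand that has its own row in the table.

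In the whole table, 48.5% of the tested genes had groups that did not overlap, and the same held for ARRDC1, ARRDC2, ARRDC3 and MLXIPL, 4 of the 8 genes. Nothing is read from this share, as the genes were chosen on this contrast.

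Per length, the 8 genes kept nearly the same order in both groups. In GCA the mean FPKM was 43.9 for MLX, 33.5 for ARRDC1, 20.0 for ARRDC2, 12.7 for MLXIP, 10.7 for MLXIPL, 0.719 for ARRDC4, 0.697 for ARRDC3 and 0.316 for TXNIP. MLXIP and MLXIPL overlapped there, as did ARRDC4 and ARRDC3. In CON it was 49.1 for MLX, 19.4 for ARRDC1, 16.4 for ARRDC2, 12.9 for MLXIP, 7.44 for MLXIPL, 2.60 for ARRDC3, 1.75 for ARRDC4 and 0.308 for TXNIP. ARRDC1 and ARRDC2 overlapped in CON, as did ARRDC3 and ARRDC4, so the swap of ARRDC3 and ARRDC4 between the groups is within their spread. MLX exceeded 90.1% of the genes in the table, and ARRDC1 exceeded 84.2%.

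The make-up of the alpha-arrestin transcripts was dominated by ARRDC1 and ARRDC2. The summed FPKM of the 5 alpha-arrestin genes was 50.5, 55.4 and 59.8 in GCA 1 to 3 and 34.7, 42.0 and 44.7 in CON 1 to 3. ARRDC1 made up 60.7% ± 1.22 of the sum in GCA and 48.2% ± 2.87 in CON (SD, n = 3 each). ARRDC3 made up 1.27% ± 0.332 in GCA and 6.32% ± 1.67 in CON, and ARRDC4 made up 1.31% ± 0.283 in GCA and 4.12% ± 2.47 in CON. The share of ARRDC4 in CON 1, 1.45%, lay inside the GCA range of 1.12% to 1.64%. ARRDC2 held 36.1% ± 1.75 in GCA and 40.6% ± 1.31 in CON. Of the MLX partners, MLXIP exceeded MLXIPL 1.19-fold in GCA and 1.87-fold in CON by mean FPKM ratio, and CON 1 alone had a ratio of 2.63.

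**Figure D2:**
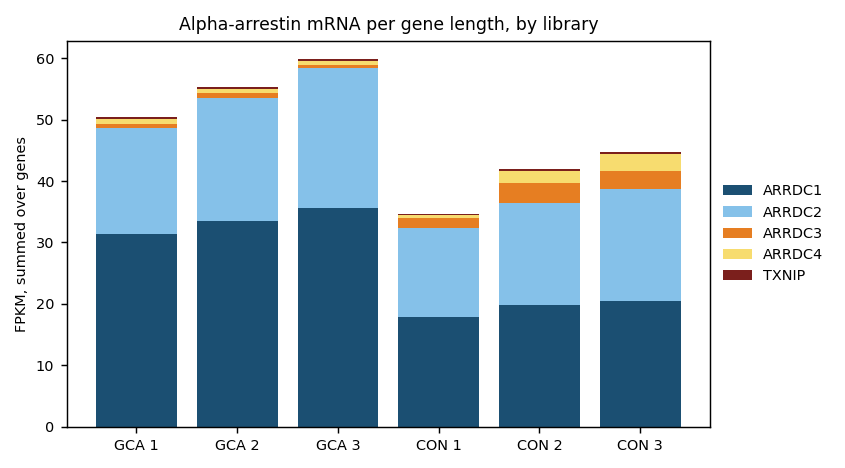
FPKM (y axis) of the 5 alpha-arrestin genes stacked in each library (x axis, GCA 1 to 3 then CON 1 to 3). The sum lies between 50.5 and 59.8 in GCA and between 34.7 and 44.7 in CON, with ARRDC1 and ARRDC2 making up most of each bar. ARRDC3 is thinner in every GCA bar, while ARRDC4 is thinner in GCA than in CON 2 and CON 3 but not than in CON 1.

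Fold changes over the whole table moved with GC content (r = 0.484 across 12560 genes, which are not independent replicates). The median GC content was 59.3% in genes called higher, 43.3% in genes called lower and 49.9% in all tested genes. The 8 genes spread along this range: ARRDC1 has 64.6%, MLXIPL 63.5%, ARRDC2 62.2%, MLXIP 57.9%, MLX 51.8%, TXNIP 43.9%, ARRDC4 43.4% and ARRDC3 37.6% GC in its longest transcript. After a correction of each library for GC content and length, ARRDC1 had a log2 fold change of 0.42 and ARRDC3 of -1.44, both still called. MLXIPL stood at 0.21 and ARRDC4 at -0.86, and both calls were lost. ARRDC2 turned to -0.05, MLXIP to -0.22 and TXNIP stood at 0.36, none of them called. MLX stood at -0.15. Such a correction also removes any real change that moves with GC content, and the part of GC content in these results was not tested.

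**Figure D3:**
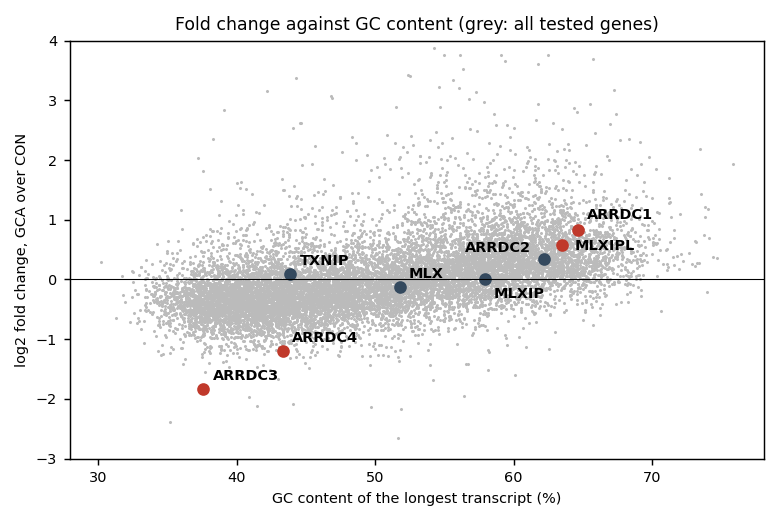
Log2 fold change, GCA over CON (y axis), against GC content of the longest transcript in percent (x axis) for 12560 tested genes in grey, of which 22 lie outside the plotted range of -3 to 4; red points are called members of the set of 8 and dark points those not called. ARRDC3 lies near the lower edge of the grey cloud at its GC content, while ARRDC1, ARRDC2 and MLXIPL lie inside the cloud at the GC-rich end.

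**Figure D4:**
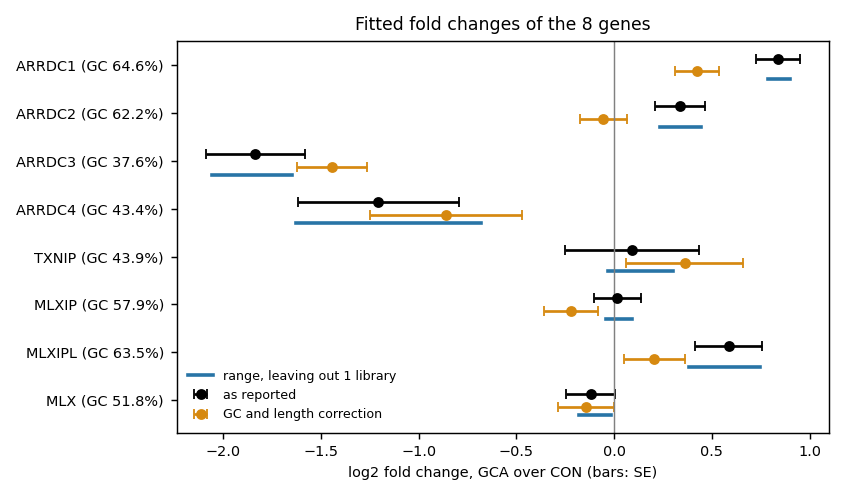
Fitted log2 fold change, GCA over CON (x axis), of the 8 genes (y axis) as reported and after the GC and length correction, with SE bars, and the range when each library is left out in turn. ARRDC1 and ARRDC3 stay on their side of 0 in all of these, ARRDC4 ranges from -1.63 to -0.68 over the libraries left out, and ARRDC2 turns to -0.05 after the correction.

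Few genes lay close to ARRDC3 or ARRDC4 over the 6 libraries by the measure used. Likeness was the root-mean-square difference in log2 CPM after centring each gene on its own mean, over 11374 genes. It is not scaled, so the number of near genes depends on a gene's fold size and counting noise. Nearness includes the contrast on which the 8 genes were chosen, and shared regulation was not tested. EREG (0.26), MMS22L (0.27) and GPAT3 (0.29) were nearest to ARRDC3, and 4 genes lay within 0.3. ASNS (0.28), NIBAN1 (0.29) and PABPC1L (0.29) were nearest to ARRDC4, with 3 genes within 0.3. Many genes lay close to ARRDC1 and MLXIPL, which had smaller fold changes and higher counts. Within 0.3 of ARRDC1 lay 2221 genes, nearest HLA-C (0.02), PITPNM1 (0.03) and VPS28 (0.04). Within 0.3 of MLXIPL lay 1476, nearest PLEKHA2 (0.04), TPBG (0.05) and VANGL2 (0.06). HLA-C can share reads with other HLA genes, so its value is uncertain.

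Beyond the 8 genes, 118 tested genes of 11 lists on their pathways were examined, of 143 listed. Of these, 20 rose and 24 fell (37.3% called), close to the share in the whole table, and their median log2 fold change was -0.02. Without CON 1, 70 of the 118 were called, and without GCA 2 and GCA 3, 29 and 25. After the GC and length correction 29 were called. All p-values below are adjusted over the whole table. The lists were chosen with earlier results of these data known, and the naming rule took called genes with the lowest p. The p-values printed for named genes are therefore a description of this contrast and no independent support. Genes named as called only after the correction were likewise picked after their values were seen.

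Among other known targets of MondoA and ChREBP, 1 of 14 tested genes rose and 5 fell. KLF10, a zinc-finger repressor induced by ChREBP, had 84.5, 77.6 and 77.6 CPM in GCA and 102, 146 and 139 CPM in CON, with a log2 fold change of -0.69 ± 0.14 (adjusted p = 0.00273). ME1, the cytosolic malic enzyme gene, fell by 0.63 (adjusted p = 0.00275). HK2, the hexokinase that phosphorylates glucose on entry, had 34.2, 36.3 and 34.1 CPM in GCA and 50.2, 48.8 and 46.2 CPM in CON, and fell by 0.47 ± 0.11 (adjusted p = 0.00585). LDHA and ACACA, outside the naming rule, were the other 2 that fell, and KHK, the fructokinase gene, rose. With the GC and length correction KLF10 (-0.49) was the 1 gene that fell, while ME1 stood at -0.30 and HK2 at -0.42. KHK lost its call too (0.24), and the 1 gene that rose was instead ELOVL6, a fatty acid elongase (0.57). Without CON 2 or without GCA 3, 3 genes fell, and without CON 2, CON 3, GCA 1 or GCA 2 none rose.

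Of the MAX and MLX network, whose members compete for E-box sites, 2 of 9 tested genes rose and 2 fell. MXD4, which encodes a MAX-binding repressor, showed the largest rise among the 118 list genes. It had 179, 222 and 213 CPM in GCA and 51.0, 54.9 and 52.1 CPM in CON, with a log2 fold change of 1.96 ± 0.13 (adjusted p = 7.90e-07). With the correction it still stood at 1.56. MXD3, its paralogue, rose by 0.60 (adjusted p = 0.00338), a call lost with the correction (0.40). MYC, the proliferation factor gene, had 423, 363 and 410 CPM in GCA and 537, 560 and 593 CPM in CON, and fell by 0.50 (adjusted p = 0.00824), a call lost without GCA 2. MGA, outside the naming rule, also fell. MAX had a log2 value of 0.02 and MNT, a repressor that can also pair with MLX, of 0.26, neither past the threshold. The count of genes that fell was 4 without CON 1, 1 without CON 2, CON 3 or GCA 3, 0 without GCA 2, and 1, MYC (-0.58), with the correction. The 2 genes that rose with the correction were MXD4 and MXD1 (0.95).

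Among genes that control MondoA and ChREBP, 9 of 19 tested genes fell and 1 rose, with a median log2 fold change of -0.37, against -0.04 over all tested genes. XPO1, the nuclear exporter that carries MondoA and ChREBP out of the nucleus, averaged 75.8 ± 7.99 CPM in GCA and 141 ± 14.9 CPM in CON (SD, n = 3 each), and fell by 0.89 (adjusted p = 0.000293). PRKAA2 and PRKAB2, subunits of AMPK, which restrains ChREBP, fell by 1.23 (adjusted p = 0.00641) and 0.71 (adjusted p = 0.0118). PRKAA2 was near 1 CPM in GCA, and both calls were lost with the correction, as was that of PRKAB2 without CON 3 or GCA 3. Outside the naming rule, 4 genes of 14-3-3 proteins, which hold these factors in the cytoplasm (YWHAB, YWHAH, YWHAQ and YWHAZ), fell, with PRKAA1 and OGA. GFPT2, of hexosamine synthesis, was the gene that rose. After the correction XPO1 (-0.54) and YWHAH (-0.39) fell, GFPT2 was no longer called, and the 2 genes that rose were OGT (0.50) and PRKAG2 (0.52). Without CON 2, CON 3, GCA 2 or GCA 3 between 2 and 4 genes fell, and none rose.

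In glucose uptake and hexose phosphorylation 3 of 11 tested genes rose and none fell. HKDC1, a hexokinase-like gene, had 7.59, 9.26 and 8.75 CPM in GCA and 1.89, 2.50 and 4.61 CPM in CON (log2 1.50 ± 0.28, adjusted p = 0.00138). SLC2A6, which encodes a lysosomal hexose transporter, averaged 49.5 ± 3.68 CPM in GCA and 23.0 ± 2.61 CPM in CON (SD, n = 3 each) and rose by 1.11 (adjusted p = 6.53e-05). SLC37A4, the glucose 6-phosphate transporter of the endoplasmic reticulum, rose by 0.46 (adjusted p = 0.00939), a call lost with the correction (0.14) and without CON 3 or GCA 3. SLC2A1, which encodes the glucose transporter GLUT1 that TXNIP restrains, had 302, 249 and 297 CPM in GCA and 257, 232 and 232 CPM in CON, and its log2 value of 0.23 did not pass (adjusted p = 0.162). It passed without CON 1 (0.28), where 6 genes of the list rose and 1 fell.

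The thioredoxin system, the binding partner of TXNIP and its helpers, had 3 of 14 tested genes up and 2 down. GLRX, the glutaredoxin gene, averaged 25.2 ± 2.78 CPM in GCA and 10.7 ± 0.758 CPM in CON (SD, n = 3 each) and rose by 1.23 (adjusted p = 8.10e-05), with 1.35 after the correction. TXNRD1, the cytosolic thioredoxin reductase, fell by 0.82 (adjusted p = 0.000670) and by 0.56 after the correction. PRDX5, a peroxiredoxin, rose by 0.57 (adjusted p = 0.00682) but stood at 0.06 after the correction, no longer called. PRDX2 rose and SRXN1 fell, both outside the naming rule. TXN itself, the thioredoxin that TXNIP binds, had 280, 289 and 264 CPM in GCA and 405, 232 and 244 CPM in CON, a log2 value of -0.08. The groups overlapped, with CON 1 the highest library. The list's count of rises was 7 without CON 1 and 1 after the correction, and its count of falls was 1 without CON 3 or GCA 3.

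Of the NEDD4-family ligases and their adaptors, the enzymes that alpha-arrestins recruit, none of 11 tested genes rose and 3 fell. NEDD4 had 3.72, 4.84 and 5.24 CPM in GCA and 5.85, 9.96 and 13.3 CPM in CON, and fell by 1.08 ± 0.27 (adjusted p = 0.00796). As for ARRDC4 and ARRDC3, CON 1 was the lowest CON library. NDFIP2, a ligase adaptor, fell by 0.46 (adjusted p = 0.0162), a call lost on leaving out any library but CON 1 and GCA 2, and stood at -0.09 after the correction. HECW2, near 1 CPM, fell by 1.01 (adjusted p = 0.0467), a call lost after the correction, with DESeq2, without the filter, and when any of the libraries other than GCA 1 was left out. NEDD4L, a close paralogue of NEDD4, had a log2 value of -0.21 (adjusted p = 0.169). The count of falls was 5 without CON 1 and 1 without CON 2, CON 3 or GCA 3, and after the correction 1 gene, NEDD4 (-0.66), fell and 2 rose, SMURF2 (0.66) and NDFIP1 (0.40).

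Other arrestin-fold genes and known alpha-arrestin partners were mostly not called. ARRB1, which encodes beta-arrestin 1, averaged 92.6 ± 6.79 CPM in GCA and 52.2 ± 4.70 CPM in CON (SD, n = 3 each), and was the 1 of 5 tested arrestin-fold genes that rose (0.83, adjusted p = 0.000311; 0.67 after the correction). ARRDC5, the remaining alpha-arrestin gene, had no count in GCA and 1 count over the CON libraries, below the filter. Of 11 tested partners and cargo proteins 1 rose, ITGB4, the integrin beta4 gene whose product ARRDC3 is reported to target. ITGB4 had 1030, 708 and 813 CPM in GCA and 361, 551 and 586 CPM in CON, and rose by 0.77 ± 0.19 (adjusted p = 0.00789). With the correction ITGB4 stood at 0.41, no longer called, and 2 other genes of the list rose, SLC11A2 (0.61) and F2R (0.69). Of the NLRP3 inflammasome, which TXNIP has been reported to activate, 3 of 7 genes passed the filter. PYCARD, CASP1 and IL1B had at most 3 counts in any library, and NLRP3 had no row in the table. GSDMD, which encodes the pore-forming gasdermin D, was the 1 tested gene that rose (0.94, adjusted p = 0.000170, and 0.49 after the correction). Without CON 1, 4 partner genes, 2 inflammasome genes and 1 arrestin-fold gene fell.

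FOXO factors and the glucocorticoid receptor are other known regulators of alpha-arrestin genes. Of 12 FOXO genes and targets 6 rose and 2 fell (66.7% called), against 36.4% called over all tested genes. Their median log2 fold change was 0.55, against -0.04 over all tested genes. This list too was chosen with earlier results known, and a part of FOXO factors was not tested. CITED2, a transcriptional coregulator, averaged 74.8 ± 4.38 CPM in GCA and 51.2 ± 1.90 CPM in CON (SD, n = 3 each) and rose by 0.55 (adjusted p = 0.00272). BCL6, a repressor gene, rose by 0.65 (adjusted p = 0.00326), and both stayed called after the correction, at 0.69 and 0.77. SESN1, a sestrin gene of the stress response, fell by 1.07 (adjusted p = 0.00286) and by 0.74 after the correction. PIK3IP1, CCNG2, TRIB1 and FOXO4 also rose and FOXO3 fell, all outside the naming rule. The count of rises was 5 after the correction, with SESN3 (0.98) now called and PIK3IP1 and FOXO4 no longer called, and 3 without GCA 2 or GCA 3, and FOXO3 was no longer called after the correction or without CON 2. Among 9 tested genes of the glucocorticoid receptor list, CEBPD rose by 0.62 (adjusted p = 0.00439) and FKBP5 fell by 0.55 (adjusted p = 0.00579). The list holds the receptor gene NR3C1, not called, beside the receptor's targets. CEBPD turned to -0.03 and FKBP5 to -0.22 with the correction, and neither was then called. The 2 targets that fell with the correction were PER1 (-0.46) and DUSP1 (-0.39). In that list 4 genes fell and 2 rose without CON 1. With the replicate block 3 of these targets fell, 2 regulators, 2 partners and 1 NEDD4-family gene rose, and 1 inflammasome gene fell. The block also gave 6 falls among the targets of MondoA and ChREBP and 10 among their regulators. It gave 3 rises in the MAX and MLX network and 4 in glucose uptake and hexose phosphorylation.

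**Figure D5:**
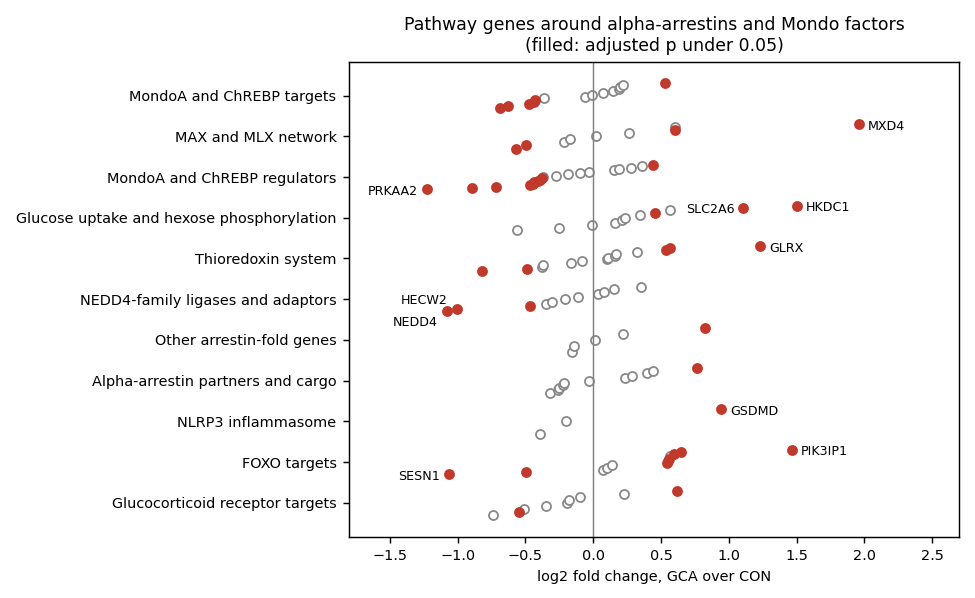
Log2 fold change, GCA over CON (x axis), of the tested genes of the 11 pathway lists (y axis), 1 point per gene; filled red points passed the adjusted threshold of 0.05 and open points did not, and called genes beyond 0.9 in size are named. MXD4 at 1.96 stands farthest right, and regulators of MondoA and ChREBP hold 9 filled points to the left of 0 and 1 to the right.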

How the data were processed

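RNA-seq of 3 GCA and 3 CON libraries was analysed. The authors deposited raw counts per gene for 16229 symbols, and FPKM values that equal those counts rescaled by library total and gene length (16229 of 16229 genes within 1e-09, relative), used only for levels between genes. Per the submitters' processing notes, the tools were HTSeq 0.11.2, HISAT2 2.2.1.0 and fastp 0.20.1 and the build hg38, with no role given. No annotation release or strand setting is stated in the sources used here. The whole count table was fitted with edgeR 4.0.16 (R 4.3.3): TMM, filterByExpr (minimum count 10, total 15), quasi-likelihood test, Benjamini-Hochberg at 0.05. The SE is the log2 fold change's size over the square root of F, and CPM uses TMM-scaled libraries. Fits were tested on simulated data.

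The 8 genes, the pathway lists and the markers were chosen with earlier results of these data known. The naming rule took the 8 genes, up to 3 called genes of each list with the lowest p and groups that did not overlap, HK2, SLC2A1, TXN, MYC, MAX, MNT, ARRDC5 and NEDD4L, and the 3 genes most like each called member. Alternatives were DESeq2's size factors, library size only, no filter, the test of DESeq2 1.42.0, the replicate number as a block, a per-library correction for GC content and length (mgcv 1.9.3, GENCODE transcripts, 99.2% of genes), both together, and leaving out each library. Same-numbered libraries correlated in their deviations from the group means at 0.206, 0.137 and 0.104 over 12604 genes. Each was over 0.1, so the numbers may pair the samples, although the labels state no pairing. The reported fit has no block, so its p-values take no account of such a pairing. For the 8 genes, a blocked value that changes a call stands beside the result. For the lists, the blocked counts that differ are given together after the last list. Genes are not independent here, and of the differently numbered pairs GCA 2 with CON 3 reached 0.0954. No libraries were alike within sampling noise (chi-square per gene 4.87 to 45.8 within groups). Promoter sequences are RefSeq's on GRCh38.p14, and overlaps of genes are from GENCODE on GRCh38.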

Additional observations from a re-analysis of the deposited data

How the results depend on the processing

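ARRDC1 and ARRDC3 kept their direction and their call under each of the 13 alternatives. All of these refits use the libraries on which the genes were chosen, so the kept calls are a description and support nothing further. The GC and length correction left 2673 of all genes called, against 4584, and 29 pathway genes, against 44; it took MLXIPL to 0.21 and ARRDC4 to -0.86, both no longer called. Together with the replicate block it gave 0.23 for MLXIPL and -0.74 for ARRDC4. CEBPD turned to a log2 fold change of -0.026 with the correction and -0.026 with the block and the correction. The replicate block alone took ARRDC4 to -1.03, no longer called, and ARRDC2 to 0.33, now called; with it 5163 genes were called, and it changed no other call among the 8 genes. Library size alone took ARRDC4 to -1.28 and MLXIPL to 0.52, both no longer called. Leaving out each library gave 2621 (without GCA 3) to 6707 calls (without CON 1; 3029 without CON 2), 25 to 70 pathway genes, and log2 fold changes of -1.63 to -0.68 for ARRDC4, 0.38 to 0.75 for MLXIPL and 0.23 to 0.44 for ARRDC2. Over the non-member genes named and all alternatives, 364 of 403 values kept their side of the threshold. Of all these values 12 turned sign, 2 of a called gene (CEBPD) and 10 of genes not called (MNT, NEDD4L, TXN and MAX). The cause of these shifts was not tested. TXNIP, with 14 to 23 counts per library, is limited by depth.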
